A study of Mus musculus with 27 samples.

Results

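The regions described here were 6539 sites that carried the histone mark H3K4me1 in mouse hematopoietic progenitor cells (HPC) at both ages and had no called peak in hematopoietic stem cells (HSC) at either age. They were chosen by their H3K4me1 peak calls, as the peaks of the adult HPC list that overlapped a fetal HPC peak and no peak of the fetal or the adult HSC list. They made up 5.17% of the 126502 adult HPC sites and are called HPC-only sites below. HSC and HPC came from B6 mice, fetal at E16.5 and adult at 8 weeks old, with no treatment and no engineered allele named in the labels. ChIPmentation was used, in which antibody-bound chromatin is cut and tagged with the transposase Tn5. Of 27 libraries, H3K4me1 took 3 of fetal HSC, 4 of adult HSC, 3 of fetal HPC and 3 of adult HPC. H3K27ac was profiled in HPC alone, with 3 fetal and 3 adult libraries. The labels of a further HPC set, with 2 fetal and 3 adult libraries, disagree on the mark. Its titles say H3K27me3 and its histone mark entry says H3K27ac, so the name second K27 set is used for it here. The remaining 3 libraries were inputs. The labels gave neither the surface markers of the sort nor the number of animals, and each group came as 1 peak list pooled over its libraries.

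H3K4me1 is a mark that enzymes of the MLL3 and MLL4 complexes place on the nucleosomes flanking enhancers, often before an enhancer is used. H3K27ac, written by p300 and CBP, marks the enhancers and promoters in use, so H3K4me1 without H3K27ac is commonly called a primed state. Adult stem cells mostly rest and can renew themselves, whereas progenitors divide and begin to express low levels of lymphoid and myeloid genes. Flt3 and Cd48, surface proteins gained as stem cells become multipotent progenitors, are standard markers of that step.

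Few of the HPC-only sites lay on promoters, and the promoter sequences at these few are shown because the reference tables held no other sequence at the sites. Among the sites on chromosomes covered by the promoter table, 76 held a transcription start, covering 83 promoter windows of 77 genes, 39 of them protein-coding. The RefSeq windows printed below hold the 250 bases before the start (GRCm38, 5′ to 3′ on the strand of the gene) of 5 of these genes. They were chosen after their values were seen, all but Kcne3 for known roles in immune cells. Ccr9 encodes a chemokine receptor of lymphoid progenitors and thymocytes (chr9:123766961-123767210, plus strand). Siglech encodes a receptor of plasmacytoid dendritic cells (chr7:55767934-55768183, plus strand). Kcne3 encodes a subunit of potassium channels (chr7:100176420-100176669, plus strand). Ffar2 encodes a receptor for short-chain fatty acids found on neutrophils (chr7:30823776-30824025, minus strand), and Tlr13 encodes a receptor for bacterial ribosomal RNA (chrX:106143025-106143274, plus strand). All 250 bases lay inside the site for Siglech, Kcne3 and Ffar2, but only the last 13 did for Ccr9 and the last 21 for Tlr13, whose matches lay outside the site. Capitals mark matches, on either strand, to the motifs spelled out after the sequences.
Ccr9: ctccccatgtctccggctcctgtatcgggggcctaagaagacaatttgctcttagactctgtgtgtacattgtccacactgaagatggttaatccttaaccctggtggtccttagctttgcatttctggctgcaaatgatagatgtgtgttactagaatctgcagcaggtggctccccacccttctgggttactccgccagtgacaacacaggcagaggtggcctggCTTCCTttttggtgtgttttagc
Siglech: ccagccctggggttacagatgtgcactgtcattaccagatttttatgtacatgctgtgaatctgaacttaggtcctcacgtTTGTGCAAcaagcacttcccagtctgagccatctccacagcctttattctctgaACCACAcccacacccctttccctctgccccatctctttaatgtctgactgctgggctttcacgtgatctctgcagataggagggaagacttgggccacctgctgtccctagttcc
Kcne3: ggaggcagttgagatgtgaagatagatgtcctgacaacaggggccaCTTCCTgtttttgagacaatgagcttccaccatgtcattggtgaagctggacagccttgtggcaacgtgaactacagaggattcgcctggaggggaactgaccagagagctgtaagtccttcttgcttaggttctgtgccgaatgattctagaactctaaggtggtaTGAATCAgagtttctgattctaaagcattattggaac
Ffar2: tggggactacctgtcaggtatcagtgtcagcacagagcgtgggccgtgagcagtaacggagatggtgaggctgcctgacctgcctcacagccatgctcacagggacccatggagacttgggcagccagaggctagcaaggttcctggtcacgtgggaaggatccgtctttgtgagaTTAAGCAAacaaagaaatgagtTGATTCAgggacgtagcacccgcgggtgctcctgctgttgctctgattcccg
Tlr13: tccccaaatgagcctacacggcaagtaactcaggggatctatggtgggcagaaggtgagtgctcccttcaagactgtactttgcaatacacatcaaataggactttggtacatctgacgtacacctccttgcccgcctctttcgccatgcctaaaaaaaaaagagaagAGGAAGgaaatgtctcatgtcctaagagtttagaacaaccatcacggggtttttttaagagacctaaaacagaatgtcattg

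The search for ETS factor motifs used AGGAAG and that for RUNX motifs used TGTGGT. For GATA factors the letters were GATAAG and for the C/EBP family they were TTGCNNAA, where N is any base. AP-1 was searched as TGANTCA and the E-box as CAGCTG. Matches of different motifs were allowed to overlap. Of the 83 windows, 28 held the ETS letters, 17 RUNX, 7 GATA, 10 C/EBP, 5 AP-1 and 12 the E-box. Among all 32851 windows of the table, ETS letters stood in 29.5%, RUNX in 14.05%, GATA in 6.55%, C/EBP in 9.56% and AP-1 in 6.75%, and the E-box stood in 4271 of them. For the 83 windows the ETS share was 33.7% (95% Wilson interval 24.5% to 44.4%) and the RUNX share 20.5% (13.2% to 30.4%). The GATA share was 8.43% (4.15% to 16.4%), C/EBP 12.05% (6.68% to 20.8%), AP-1 6.02% (2.60% to 13.3%) and the E-box 14.5% (8.47% to 23.6%). Each interval took in the share over all windows. Where the start lay in another adult HPC site, ETS letters stood in 35.25% of windows and RUNX in 15.3%, also inside these intervals. A more visible feature of the 83 windows was their low number of CpG dinucleotides, with a median of 3 in 250 bases. The 6212 windows whose start lay in another adult HPC site had a median of 6. As many as 34 of the 83 windows (41.0%) held 2 CpG or fewer, against 19.9% (18.9% to 20.9%) of the windows in other adult HPC sites and 29.0% (28.5% to 29.5%) of all windows. The interval for the 83 was 31.0% to 51.7%. In the printed windows, Siglech held 2 CpG, Ccr9 and Kcne3 3 each, Tlr13 5 and Ffar2 9. None of these 5 promoter sites overlapped an H3K27ac peak at either age.

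The HPC-only sites were weak and narrow members of the adult list, which is given as a description because strength bears on whether a peak is called. Their median fold over background, the value MACS2 gives each peak, was 2.62, against 3.22 over the whole adult HPC list and 4.02 over the 75062 sites present in all 4 H3K4me1 lists. The lowest fold was 1.47 and the highest 7.53. Their median width was 457 bp, against 864 bp over the whole list. Low strength and width were not particular to them. The 12084 sites in the adult HPC list and no other H3K4me1 list had a median fold of 2.47 and a median width of 364 bp. The 5453 sites that were HSC-only at both ages had a median fold of 2.49 in the adult HSC list and a median width of 349 bp. Only 38 HPC-only sites stood among the strongest 20000 adult HPC sites by −log10 p, which is 0.190% of those. The fetal HPC peaks that they overlapped had a median fold of 2.71 in their own list. These were 6878 fetal peaks, of which 264 were shared by 2 or more HPC-only sites, so neighbouring sites were not always separate events.

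Many of the sites also lay close to an H3K4me1 peak of HSC. The median distance to the nearest HSC peak of either age was 689 bp, 57.4% had one within 1 kb, and 510 sites (7.80%) had none within 10 kb. Just inside the rule, 375 sites lay within 50 bp of an HSC peak and had a median fold of 2.46. Just outside it, 493 sites that met the rest of the rule overlapped an HSC peak by 50 bp at most and had a median fold of 2.42. A missing HSC peak therefore means that no peak was called there, and the depth of the libraries is unknown. A mark carried by few cells of a population and a weak mark carried by all of them cannot be told apart in such data. Of the 4 lists, fetal HSC was the longest, with 231188 peaks, and the adult HSC list held 143571.

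In genomic position the sites were mostly distal. A transcription start lay within 1 kb of 323 of the 6321 sites on chromosomes covered by the promoter table (5.11%, 4.59% to 5.68%). The share was 18.4% for the other adult HPC sites and 17.7% for the list as a whole, and the difference from the others was -13.3 percentage points (-13.9 to -12.7, Newcombe interval). The median distance to a start was 20.01 kb, against 13.6 kb for the others. The sites also lay inside genes less often, with 47.6% (46.4% to 48.8%) within a protein-coding gene, against 62.5% of the others. In the mirror set of 5453 sites that were HSC-only at both ages, 64.7% (63.4% to 65.9%) lay inside a gene. A distal position was not particular to the HPC-only sites. In the mirror set 5.97% (5.37% to 6.65%) had a start within 1 kb, and the median distance was 26.08 kb. Of the 12084 sites in the adult HPC list and no other H3K4me1 list, 6.42% (5.99% to 6.88%) had one within 1 kb, and 51.2% lay inside a gene. For 10.3% of the HPC-only sites no protein-coding gene lay within 100 kb.

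H3K27ac in HPC, which the choice of sites did not use, was uncommon at the HPC-only sites. An adult H3K27ac peak overlapped 817 of them (12.5%, 11.7% to 13.3%), against 39.5% of the other adult HPC sites and 38.1% of the whole list. A fetal H3K27ac peak overlapped 240 (3.67%, 3.24% to 4.15%), against 26.6% of the others and 25.5% of the whole list. The differences were -27.0 points (-27.8 to -26.1) for the adult mark and -23.0 points (-23.5 to -22.4) for the fetal mark. Low shares were not particular to the HPC-only sites. Of the 12084 sites in the adult HPC list and no other H3K4me1 list, 10.97% overlapped adult and 2.53% fetal H3K27ac. The HPC-only sites stood above these by 1.52 points (0.556 to 2.51) in the adult and 1.14 points (0.617 to 1.69) in the fetal mark. At 5638 HPC-only sites (86.2%) there was no H3K27ac peak at either age. With no replicate lists, these intervals covered counting error only, and no test across samples was possible.

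Strength and width moved with the difference from the other adult HPC sites, and it became smaller among sites of like strength. When the adult HPC list was divided into 10 equal parts by −log10 p, the HPC-only sites had the lower H3K27ac share in 10 of 10 parts at both ages, with every interval of the difference below 0. In the weakest of these, adult H3K27ac stood at 6.40% of the HPC-only sites and 8.08% of the others. In the fifth it stood at 13.9% and 25.3%, and in the strongest at 71.4% of 14 HPC-only sites and 90.7% of the others. The parts did not match the sites fully. Median widths were 657 bp for HPC-only and 730 bp for other sites in the fifth, and 2417 and 3638 bp in the strongest. The strongest part ran up to a −log10 p of 267.9, while no HPC-only site exceeded 62.6. Averaged over the parts with the HPC-only counts as weights, the difference was -6.86 points for adult and -8.97 points for fetal H3K27ac. A difference also stood on either side of a split by promoter position. Among sites with no start within 1 kb the adult share was 11.6% (10.8% to 12.4%) against 31.9%, and among those with a start it was 32.2% (27.3% to 37.5%) against 73.2%.

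**Figure D1:**
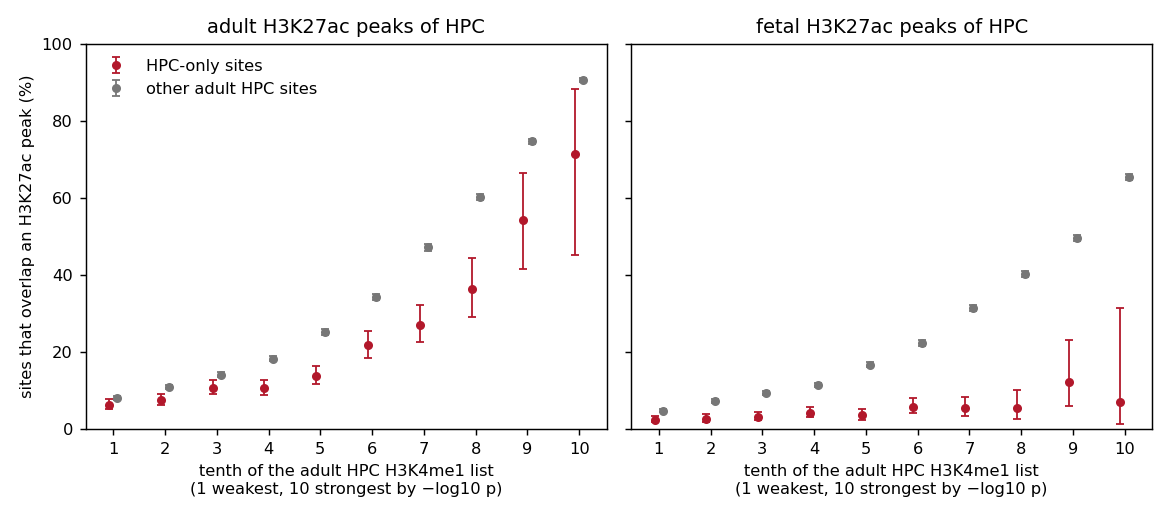
Share of adult HPC H3K4me1 sites (%) that overlap an H3K27ac peak of adult HPC (left) or fetal HPC (right), in 10 equal parts of the list from weakest to strongest by −log10 p; points are shares and bars 95% Wilson intervals. The HPC-only sites (red) lie below the other adult HPC sites (grey) in all 10 parts in both panels, and their fetal shares stay under 13% throughout.

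The adult H3K27ac share stayed between 10% and 15% at every distance from an HSC peak. It stood at 10.8% (9.38% to 12.5%) of the 1551 sites within 200 bp of an HSC peak. For the 2277 sites over 1 kb and up to 10 kb away it stood at 14.1% (12.7% to 15.6%), and for the 510 sites beyond that at 12.5% (9.95% to 15.7%). Fetal H3K27ac stood at 4.90% (3.93% to 6.09%) within 200 bp and at 5.29% (3.66% to 7.59%) beyond 10 kb. Between these ends it was lower, at 3.54% (2.85% to 4.40%) up to 1 kb and 2.59% (2.01% to 3.33%) from there to 10 kb.

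Where HPC-only sites were acetylated, this was mostly in the adult alone. Of the 901 sites with an H3K27ac peak at some age, 661 (73.4%, 70.4% to 76.1%) had it only in the adult list, 84 only in the fetal list and 156 (17.3%, 14.98% to 19.9%) in both. Among the other adult HPC sites with H3K27ac, 37.3% had it only in the adult list and 55.5% in both. Among the 12084 sites found in the adult HPC list alone, which lacked H3K4me1 in the fetal HPC list, 77.9% (75.6% to 80.0%) of the acetylated ones had it only in the adult. The adult H3K27ac list was the longer, with 63108 peaks against 50858, and the share of that length in the adult excess was not tested. When fetal HPC peaks were taken as the sites instead, 14.7% of 8233 sites overlapped adult and 3.12% fetal H3K27ac.

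**Figure D2:**
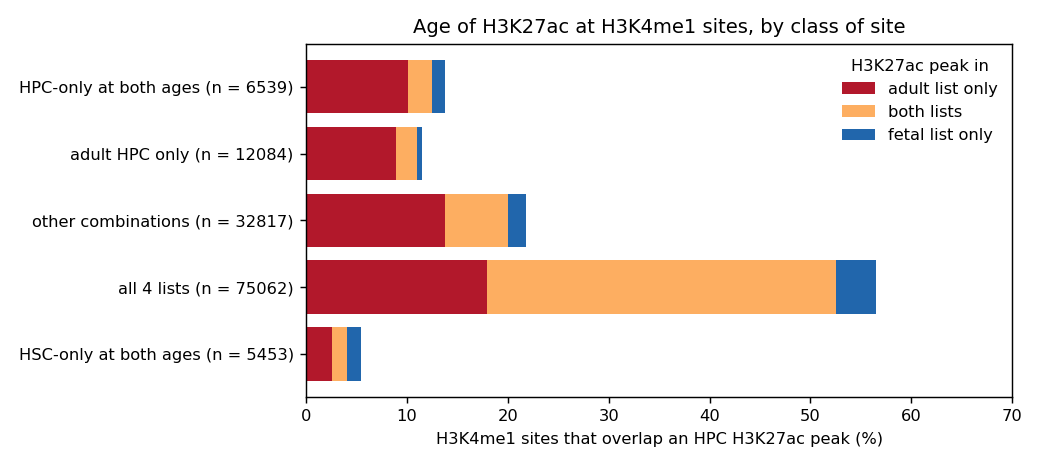
Share of H3K4me1 sites (%) with an HPC H3K27ac peak in the adult list only, in both lists or in the fetal list only, as stacked bars for 5 classes of site with their numbers. The bar of the HPC-only sites is mostly the adult-only part, while that of the sites in all 4 lists is mostly the part shared by both ages.

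The mirror set gives a measure of scale for these shares. Adult HPC H3K27ac overlapped 4.02% (3.53% to 4.57%) of the HSC-only sites, 8.48 points fewer than at the HPC-only sites (7.52 to 9.44), while it overlapped 35.7% of the whole adult HSC list. Fetal HPC H3K27ac overlapped 2.81% (2.40% to 3.28%) of the HSC-only sites, against 23.8% of that whole list, and the difference from the HPC-only sites was 0.864 points (0.226 to 1.496). H3K27ac was not profiled in HSC. The rule kept H3K4me1 peaks of HPC out of the HSC-only sites, and H3K27ac was read in HPC. The comparison was therefore not an even one, and nothing is concluded from its direction. At HPC-only sites with adult H3K27ac the median H3K4me1 fold was 2.92 and the median width 689 bp, against 2.57 and 436 bp at those without it.

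Peaks of the second K27 set were rarer still at the HPC-only sites. They overlapped 23 sites in the adult (0.352%, 0.234% to 0.527%) against 1.45% of the others and 1.39% of the whole list. In the fetal list they overlapped 44 (0.673%, 0.502% to 0.902%) against 3.19% of the others and 3.06% of the whole list. The HSC-only sites had more of both, with 2.46% (2.08% to 2.90%) in the adult and 4.31% (3.80% to 4.88%) in the fetal list. Sites in the adult HPC list and no other H3K4me1 list also had low shares, at 0.604% (adult) and 1.45% (fetal). The HPC-only sites differed from these by -0.252 points (-0.4465 to -0.0378) in the adult and -0.775 points (-1.06 to -0.472) in the fetal list. For this set the difference from the other adult HPC sites was not taken within the 10 parts of like strength. Among second K27 peaks of −log10 q of at least 5, the adult difference from the other sites shrank to -0.0164 points (-0.0336 to 0.0554). The 6 strongest HPC-only sites with a second K27 peak had it in the fetal list and not in the adult list. One of these lay in Fgf8, a growth factor of embryonic patterning (chr19:45739351-45739849), with a second K27 fold of 4.81.

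Each site was then assigned to the nearest protein-coding gene within 100 kb. Of 21887 such genes, 3458 (15.8%) had 1 or more HPC-only sites, 2234 had exactly 1 and 152 had 5 or more. HSC-only sites fell to 3005 genes (13.7%), and 798 genes had both kinds. The genes were read through 23 lists, each described by the share of its adult HPC sites that were HPC-only, beside 5.17% over all sites. For the mirror set the share over all adult HSC sites was 3.8%. The 95% interval lay above the share over all sites for 5 lists and below it for 2.

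Lists of progenitor, lymphoid and myeloid genes had the highest shares. At genes for myeloid factors and receptors, 27 of 209 adult HPC sites were HPC-only (12.9%, 9.03% to 18.1%), and 0 of 176 adult HSC sites were HSC-only. At lymphoid priming genes it was 41 of 338 sites (12.1%, 9.07% to 16.04%), with 6 of 325 HSC-only. At the 6 progenitor identity genes it was 18 of 156 (11.5%, 7.42% to 17.5%), with 1 of 154 HSC-only. Genes of monocytes and dendritic cells had 30 of 280 (10.7%, 7.61% to 14.9%), and inflammatory signalling genes 23 of 217 (10.6%, 7.17% to 15.4%). Single genes weighed on 2 of these lists, in a comparison added after the data were seen. Without Cd48 the progenitor share was 11 of 145 (7.59%, 4.29% to 13.07%) and without Il1r1 the inflammatory share 15 of 190 (7.89%, 4.84% to 12.6%), and both intervals then took in 5.17%. The lymphoid, myeloid and monocyte intervals stayed above it without their leading genes Satb1, Cebpa and Ly86. At genes of HSC identity and quiescence the counts lay the other way, with 8 of 536 sites HPC-only (1.49%, 0.758% to 2.92%; 0.994% without Erg) and 116 of 910 HSC-only (12.7%, 10.7% to 15.1%). Flt3 and Cd48 stand in both the progenitor and the lymphoid list.

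**Figure D3:**
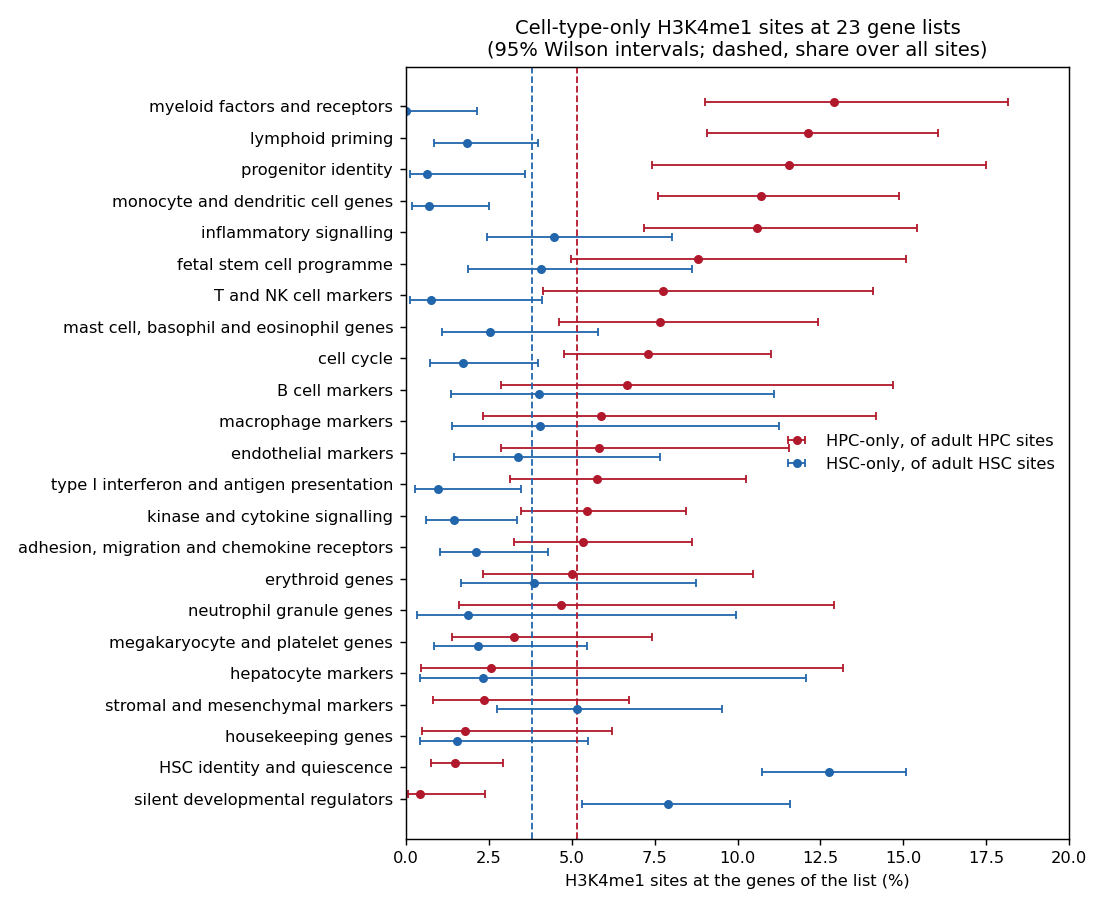
Share (%) of adult HPC H3K4me1 sites that are HPC-only (red) and of adult HSC sites that are HSC-only (blue) at the genes of 23 lists, as points with 95% Wilson intervals; dashed lines are the shares over all sites, 5.17% and 3.8%. Myeloid, lymphoid, progenitor and monocyte lists lie to the right in red and to the left in blue, and the HSC identity list lies the other way round.

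The progenitor markers differed among themselves. Cd48, a SLAM family receptor whose presence on the surface separates progenitors from stem cells, had 7 HPC-only sites among 11 adult HPC sites (63.6%). Its adult folds in genome order were 2.57, 3.92, 2.80, 4.27, 2.72, 2.27 and 2.36. The strongest of them, at chr1:171682669-171683030 within the gene, overlapped an H3K27ac peak of fold 8.37 in the adult and one of 2.68 in the fetal list. It was the only 1 of the 7 with fetal H3K27ac, while 3 had adult H3K27ac. The first 3 sites lay outside the gene, within 3874 bp of it, and touched a single fetal peak of fold 3.92. Flt3, the receptor tyrosine kinase that multipotent progenitors gain, had 4 of 21, all within the gene, with adult folds of 2.17, 2.32, 2.97 and 2.72. The Flt3 site at chr5:147387141-147387658 overlapped H3K27ac peaks of fold 2.62 in the adult and 2.68 in the fetal list, and lay 10 bp from a fetal HSC peak. Kit, the stem cell factor receptor shared by HSC and HPC, had 3 of 57, Cd27 and Ptprc (CD45) 2 each of 9 and 36, and Cd34 0 of 22. The HSC lists also held many H3K4me1 peaks at Cd48 and Flt3. Cd48 had 14 peaks in fetal HSC and 8 in adult HSC, against 14 in fetal HPC and 11 in adult HPC. Flt3 had 36 in fetal HSC and 15 in adult HSC, against 31 in fetal HPC and 21 in adult HPC.

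The sites at Cd48 were part of a run along the SLAM family cluster. Between chr1:171545673 and chr1:171737130, 15 of 32 adult HPC sites (46.9%) were HPC-only. They went to Cd48 with 7 sites, to Cd244a, a receptor for CD48, with 3, to Slamf7 with 2 and to Ly9 with 1, among others. Slamf1, which encodes CD150 and marks HSC, lay just beyond the run and had 0 HPC-only sites of 9 and 3 HSC-only sites. Over the 9 family genes, 16 of 76 adult HPC sites (21.1%, 13.4% to 31.5%) were HPC-only and 3 of 73 adult HSC sites were HSC-only. The family was picked after its values were seen.

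In the lymphoid priming list, 13 of 20 genes (65.0%) had an HPC-only site, against 15.8% of all protein-coding genes. Such gene counts do not allow for the number of adult HPC sites per gene. They also exceeded 15.8% at the HSC identity list (27.3%), whose share of sites was low. Satb1, a chromatin organizer needed for lymphoid development, had 10 of 42, spread from 99955 bp outside the gene to inside it, and 1 of them had adult H3K27ac. Their adult folds ran from 2.07 to 3.92 and their fetal folds from 2.52 to 5.37. Ccr9 had 5 of 13, with adult folds of 3.14, 3.22, 2.42, 2.46 and 2.72, the last being the promoter site printed above. Il7r, the interleukin 7 receptor of lymphoid progenitors, had 2 of its 4 sites, at folds of 2.72 and 2.19, and Rag1, the recombinase gene, 1 of 2 at 2.87. None of these 3 genes' sites had H3K27ac except the most distant site of Ccr9, which overlapped an adult peak of fold 3.43. Ikzf1 and Mef2c, which had 37 and 60 adult HPC sites, had 1 HPC-only site each. Dntt, Rag2 and Tcf3 had 0.

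In the myeloid list, 11 of 20 genes (55.0%) had an HPC-only site, against 15.8% of all protein-coding genes. Again the count does not allow for the number of adult HPC sites per gene. Cebpa, the factor that starts granulocyte and monocyte commitment, had 4 of 12, all outside the gene between 8157 and 26902 bp away, with adult folds of 3.67, 2.57, 2.69 and 2.67 and no H3K27ac. Cd33, a sialic acid receptor of myeloid cells, had 4 of 6, with folds of 3.22, 2.57, 4.07 and 3.15 within 4151 bp of the gene, again without H3K27ac, and 3 of them touched 1 fetal peak of fold 4.18. Itgam, which encodes CD11b, had 3 of 13 at folds of 3.70, 2.33 and 3.74. Klf4, a factor of monocyte differentiation, had 3 of 14. Its strongest, 52575 bp away at chr4:55585050-55587461, had an adult fold of 5.73, a fetal fold of 3.43 and an adult H3K27ac peak of fold 3.62. Csf2rb, the shared chain of the GM-CSF and interleukin 3 receptors, had 3 of 6 at folds of 2.52, 1.78 and 2.47. Spi1, the gene of PU.1, had 0 of 15, and Csf3r, the G-CSF receptor, 0 of 6. The neutrophil granule list had 3 of 64 sites (4.69%, 1.61% to 12.9%), with 2 at Mmp8 and 1 at Lcn2, while Elane, Mpo and Prtn3 had 0.

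Among monocyte and dendritic cell genes, 14 of 18 (77.8%) had an HPC-only site, against 15.8% of all protein-coding genes. This count, too, does not allow for the number of adult HPC sites per gene. Of the 30 sites, 2 had adult H3K27ac. Ly86, a partner of a Toll-like receptor, had 6 of 44, Tcf4, the factor of plasmacytoid dendritic cells, 5 of 48, and Irf4 3 of 7. Cx3cr1, the fractalkine receptor of monocytes, had 3 of 10, of which the strongest, at chr9:120042359-120044316, had an adult fold of 5.06 and an adult H3K27ac peak of fold 2.16. Irf8, which steers monocyte and dendritic cell fates, had 3 of 37 at folds of 2.19, 3.31 and 2.72. In the inflammatory list, Il1r1, the interleukin 1 receptor, had 8 of 27, with adult folds from 1.77 to 3.52 and adult H3K27ac at 1 of them. Tnfaip3, an inhibitor of NF-kB signalling, had 5 of 29, and Il6ra 3 of 23, while Nfkb1 had 0 of 25.

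**Figure D4:**
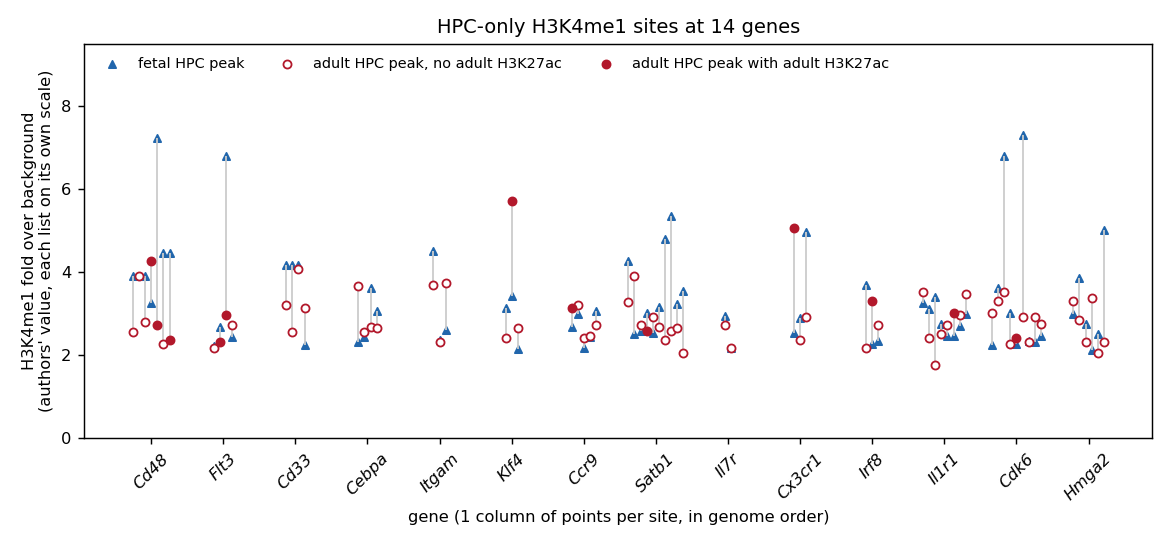
H3K4me1 fold over background, as the authors' list gives it, at every HPC-only site of 14 genes; each site is 1 column with its adult HPC peak (circle, filled where it overlaps an adult H3K27ac peak) and the fetal HPC peak that it overlaps (triangle), and the 2 lists are on separate scales. Most circles lie between 2 and 4 and are open; the highest is the Klf4 site at 5.73, followed by a Cx3cr1 site at 5.06.

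The 8 sites at HSC identity genes went to 6 of 22 genes (27.3%, against 15.8% of all protein-coding genes). Erg had 3, and Mecom, Hlf, Meis1, Angpt1 and Gfi1b had 1 each. Of the 8, 4 had adult H3K27ac. The site in Hlf, at chr11:90386514-90387189, had an H3K4me1 fold of 2.57 and H3K27ac folds of 12.5 in the adult and 4.35 in the fetal list, and lay 57 bp from an HSC peak. The site beside Meis1, at chr11:18876127-18876896, had 2.72, 12.98 and 3.27 for the same 3 values, and that in Mecom, at chr3:30011379-30012014, had 2.82, 9.15 and 8.87. At Prdm16, Mllt3 and Procr there were 0 HPC-only sites, although Prdm16 had 15 HSC-only.

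The other list whose interval lay below the share over all sites was that of developmental genes silent in blood. These silent developmental regulators had 1 of 234 (0.427%, 0.0755% to 2.38%), beside Gsc, and 23 of 291 HSC-only (7.90%, 5.32% to 11.6%). Housekeeping genes had 2 of 113 (1.77%, 0.487% to 6.22%), erythroid genes 6 of 120 (interval 2.31% to 10.5%), megakaryocyte genes 5 of 153 (3.27%, 1.40% to 7.42%) and mast cell, basophil and eosinophil genes 14 of 183 (7.65%, 4.61% to 12.4%), and each interval took in 5.17%. So did those of cell cycle genes with 20 of 274 (7.30%), of which 9 were at Cdk6 and 4 at Ccnd2. For markers of other cells that a sort could hold, the intervals were wide and each took in the share over all sites. B cell markers had 5 of 75 (6.67%, 2.88% to 14.7%) and T and NK cell markers 9 of 116 (7.76%, 4.14% to 14.1%). The B cell sites were 2 at Ebf1 and 1 each at Blnk, Cd22 and Fcer2a, with 0 at Cd79a, Pax5 and the rest of the list. Macrophage markers had 4 of 68 (5.88%, 2.31% to 14.2%) and endothelial markers 7 of 120 (5.83%, 2.85% to 11.55%). Stromal markers had 3 of 127 (2.36%, 0.807% to 6.715%) and hepatocyte markers 1 of 39 (2.56%, 0.454% to 13.2%). Peaks do not measure cell numbers, so the part of such cells in these values was not tested.

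The genes with the most sites were not those of the lists, apart from Satb1. Slco3a1, an organic anion transporter, and Maml3, a Notch coactivator, had 19 each, of 69 and 104 adult HPC sites. Wwox, a tumour suppressor at a fragile site, had 15 of 95, Susd1 13 of 43 and Trappc9 12 of 77. Chst11, Phf14, Prex1 and Prkcb, the gene of protein kinase C beta in B cells, had 11 each, and Snx29, Satb1 and Gm5861 10 each. Gm5861 had 13 fetal HPC peaks, 1 fetal HSC peak and 0 adult HSC peaks. By the highest share of a gene's sites, the genes reported here were Cd48 with 63.6%, Gm5861 with 62.5%, Cd69, a receptor that retains lymphocytes in tissues, with 7 of 13 (53.8%), BC035044 with 6 of 14 (42.9%) and Btla, an inhibitory lymphocyte receptor, with 5 of 12 (41.7%). Sites also lay in runs. Joining sites no more than 50 kb apart gave 173 runs of 5 or more, which held 17.4% of the sites. The Slco3a1 run held 19 of 64 adult HPC sites in 208.1 kb, and a run beside Hmga2, a chromatin protein of the fetal stem cell programme, 16 of 42.

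The strongest HPC-only site lay at chr7:78718045-78722817, 52524 bp from Mrpl46, with an adult fold of 7.53, a fetal fold of 4.93 and H3K27ac folds of 9.93 in the adult and 4.52 in the fetal list. Its nearest HSC peak was 4741 bp away. Of the 10 strongest sites, 9 overlapped adult H3K27ac and 1 fetal H3K27ac. The next in order lay in Ccdc88c (chr12:100987125-100990657), with an adult fold of 6.73 and an adult H3K27ac fold of 6.46, and in Paqr5 (chr9:62011894-62015726), with 5.92 and 3.26. The exception without H3K27ac lay in Kcne3 (chr7:100180673-100183615), with an adult fold of 6.23 and a fetal fold of 4.57. With the promoter site printed above, Kcne3 had 4 HPC-only sites of 6, while the adult HSC list had 2 peaks and both H3K27ac lists 0 at that gene. The strongest sites with fetal H3K27ac alone were weaker, led by chr14:7523716-7523895 with an adult fold of 4.05 and one in 6430548M08Rik with 4.47.

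Among the 10 strongest, 2 sites lay in the immunoglobulin heavy chain locus (Igh), which rearranges first in B cell development and whose variable segments are not among the protein-coding genes used above. Igh was singled out for this reason after its values were seen. Over the locus, chr12:113256204-116009954, 46 of 228 adult HPC sites (20.2%, 15.5% to 25.9%) were HPC-only, against 5.17% over all sites. The 4 H3K4me1 lists held unequal numbers of peaks there, with 142 in fetal HPC, 228 in adult HPC, 24 in fetal HSC and 62 in adult HSC, and 0 sites were HSC-only. H3K27ac peaks numbered 132 in the adult and 24 in the fetal HPC list. Of the 46 sites, 15 overlapped adult H3K27ac and 3 fetal H3K27ac, and 36 had no HSC peak within 1 kb.

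Along the locus the sites formed groups with a gap between them. In the first 250 kb, counted from the constant-region end, 10 of 36 adult HPC sites were HPC-only, and in the next 1250 kb 0 of 32. The adult HPC list was itself sparse in that stretch, with 21 of the 32 between 1250 and 1500 kb. From 1750 to 2250 kb, among variable segments, 24 of 65 were HPC-only, and from 2500 to 2750 kb 9 of 54. The strongest 4 had adult folds of 6.28, 6.23, 5.73 and 5.53, fetal folds of 2.78, 2.48, 3.15 and 1.961, and adult H3K27ac folds of 4.40, 4.97, 3.24 and 4.04. All 4 lay among variable segments and over 5 kb from an HSC peak. Other receptor loci had fewer, with 0 of 8 at Igk, 8 of 105 at Tcra and Tcrd (7.62%, 3.91% to 14.3%), 5 of 57 at Tcrb (8.77%, 3.81% to 18.9%) and 4 of 12 at Tcrg (33.3%, 13.8% to 60.9%). None of those 17 sites overlapped H3K27ac at either age.

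**Figure D5:**
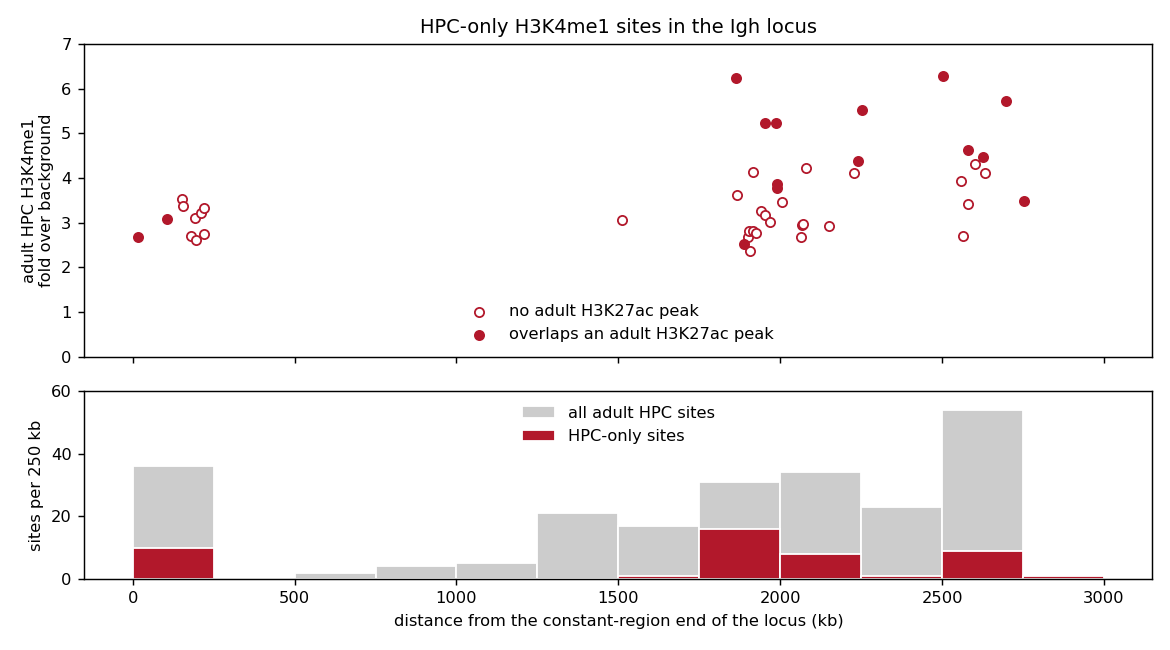
Top, adult HPC H3K4me1 fold over background of the 46 HPC-only sites in the Igh locus by distance in kb from its constant-region end, filled where the site overlaps an adult H3K27ac peak; bottom, number of all adult HPC sites (grey) and of HPC-only sites (red) in windows of 250 kb. The sites sit in the first 250 kb and, with the highest folds, beyond 1750 kb, with 1 site between.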

How the data were processed

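The submitters' processing notes name Novoalign, MACS2 and the build mm10 (GRCm38). Their versions and the calling thresholds were not stated. The authors deposited 1 filtered peak list per group, pooled over its libraries. Each peak carried the authors' fold (a ratio of ChIP signal over background) and −log10 values of p and q, also from the authors. These values ranked and filtered sites inside their own list alone. Depth is unknown, and reads and signal tracks were not used here.

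Sites and peaks were matched by an overlap of 1 bp or more. Shares carry 95% Wilson intervals and differences Newcombe intervals, which cover counting error only and treat neighbouring sites as independent. Libraries were pooled, so no test across samples was run. Each site took the closest gene, up to 100 kb away (distance 0 inside a gene), out of 21887 coding for protein in RefSeq's GRCm38 table, and 409 of 411 list names matched. Starts and promoter sequences came from RefSeq windows of the same build, without chromosome 18, and no genome was used, so distal sequences are not analysed here.

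The members, lists and tests were chosen with earlier results of these data known. Genes and sites were named by rule: the 12 genes with the most sites, up to 4 per list, the 10 strongest sites, the 6 strongest of each H3K27ac pattern and of the second K27 set, and the 6 genes with the highest share among those with 5 or more sites. A few genes are not reported here. Further genes and loci, among them the SLAM family, Igh, Kcne3, Csf2rb, Itgam, Il7r, Rag1 and genes given for having 0 or 1 site, were chosen after their values were seen. Overlap counts were checked on simulated lists with planted answers. Python 3.11.15, numpy 2.4.6, pandas 2.3.3 and matplotlib 3.10.9 were used. The alternatives were a larger overlap, no HSC peak within 1 kb, stronger or wider peaks, shortened HSC lists, fetal peaks as sites, autosomes, stronger or nearby peaks of the other mark, summit windows, 10 parts of like strength and a 20 kb gene distance.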

Additional observations from a re-analysis of the deposited data

How the results depend on the processing

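No paired analysis was possible because each list was pooled over the libraries of its group, and for the same reason no replicate could be left out. The differences in H3K27ac and the second K27 set, and those of Igh and the 7 gene lists whose interval left out the share over all sites, kept their direction under the alternatives run, for the lists also without their leading gene. Of the 24 differences for lists and Igh, 9 changed sign under some alternative on the rule, and the interval of each took in 0 to begin with. These were the neutrophil (-0.48 to 2.89 points), erythroid (0.297 at the highest), megakaryocyte (1.82), mast cell (-0.163 at the lowest), B cell (-0.0816), fetal stem cell programme (-1.81), interferon (-1.05), signalling (-0.249) and endothelial (-1.27) lists. The number of HPC-only sites, 6539, became 2787 with no HSC peak within 1 kb, 3387 with HPC peaks of −log10 q of at least 5, 11609 with both HSC lists shortened to the length of the adult HPC list, and 2894 with peaks of at least 500 bp. The difference in adult H3K27ac from the other adult HPC sites, -27.0 points, became -24.8, -29.1 and -31.5 for no HSC peak within 1 kb, stronger peaks and wider peaks, -13.8 with fetal peaks as the sites, -18.3 counting H3K27ac within 1 kb, -21.7 in windows of 250 bp either side of the summit (added after the data were seen) and -6.86 within 10 parts of like strength. The fetal H3K27ac difference, -23.0 points, became -22.4 with overlap from 50% of the shorter peak, -25.7 and -29.9 for stronger and wider peaks, -16.9 with fetal peaks as the sites, -22.0 with stronger H3K27ac peaks, -21.1 within 1 kb, -17.3 in summit windows and -8.97 within the 10 parts. The excess of adult H3K27ac over the HSC-only sites, 8.48 points, became 10.8 (no HSC peak within 1 kb), 11.9 and 14.04 (stronger and wider peaks), 10.3 (shortened HSC lists), 10.9 (fetal peaks), 6.76 (stronger H3K27ac peaks) and 20.2 (H3K27ac within 1 kb). The choice of the 2 sets bears on the direction of this excess under every alternative. For the second K27 set the adult difference of -1.10 points became -1.36 and -1.49 for stronger and wider peaks, -2.78 within 1 kb and -0.0164 with stronger second K27 peaks, where the interval took in 0. The fetal difference of -2.52 became -2.25 for no HSC peak within 1 kb, -2.80 and -3.00 for stronger and wider peaks, -2.25 for shortened HSC lists, -1.54 for fetal peaks, -1.05 with stronger second K27 peaks and -4.20 within 1 kb. The cause of these shifts was not tested. Against the share over all sites, the intervals of the lymphoid, monocyte and progenitor lists and of Igh stayed above it and that of HSC identity below it in 7 of 7 alternatives on the rule, that of the myeloid list above it in 6 and that of the inflammatory list in 5. That of the silent developmental regulators lay below it in 5, and took in 0 for no HSC peak within 1 kb (-1.78 points) and for peaks of at least 500 bp (-2.64). With peaks of at least 500 bp the myeloid excess was 2.77 points (-0.0409 to 7.78). With genes assigned within 20 kb, Satb1 and Gm5861 had 6 sites each, Phf14 7 and Prex1 4.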

Other observations

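On the X chromosome 146 of 1991 adult HPC sites were HPC-only (7.33%, 6.27% to 8.56%), the highest share of any chromosome, against 5.17% over all sites. The median H3K4me1 fold of X-linked sites was 2.72, against 3.22 over the whole adult HPC list. HPC-only sites made up 10.5% of the weakest of the 10 parts of that list and 0.111% of the strongest. The part of strength in the X share was not tested. The toll-like receptor gene Tlr7, which lies on the X chromosome, had 5 of 12 sites, and 2 of the 5 had adult H3K27ac. Adult HPC had H3K4me1 at 12 sites of Tlr7, fetal HPC at 12, fetal HSC at 9 and adult HSC at 2. The gene Spata48, which neighbours the lymphoid factor Ikzf1, had 6 of 23 sites, all without adult H3K27ac, while Ikzf1 itself had 1 of 37. Ptafr, the receptor for platelet-activating factor, had 5 of 15, of which 1 had adult and 1 other fetal H3K27ac. Tespa1, a T cell signalling gene, had 5 of 15 and none with adult H3K27ac. These genes were chosen after their values were seen.

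In the fetal stem cell programme list, 11 of 125 sites were HPC-only (8.80%, 4.99% to 15.1%). Hmga2 had 6 of them, all outside the gene, with adult folds of 3.32, 2.85, 2.32, 3.37, 2.07 and 2.32 and no H3K27ac in the adult. All 6 lay over 20 kb away, so that with genes assigned within 20 kb Hmga2 had 0 and the list 4 sites. Without Hmga2 the share of the list was 6.17% (2.67% to 13.6%). Among mast cell, basophil and eosinophil genes, Il1rl1, the interleukin 33 receptor, had 3 of 10 sites and Cpa3, a mast cell protease, 2 of 6, and neither gene had adult H3K27ac at these sites.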
